A study of Mus musculus with 10 samples.

Results

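The genes described here encode proteins of the neuroendocrine secretory granule, except Neurod1, a transcription factor counted with them as a granule gene below. They were measured in medullary thymic epithelial cells (mTECs) that lack the transcription factor Fezf2 and in wild-type mTECs. The 10 genes are Resp18, Chga, Chgb, Scg2, Scg3, Scg5, Pcsk1, Pcsk2, Cpe and Neurod1. Each was represented by the array probe set that the platform annotation assigns to that gene symbol alone, taking the one with the highest mean where there were several. Of the 10 genes, 9 had such a probe set, among 18194 genes in all, and 8 passed the filter on low signal, among 14087 genes in all. Pcsk1 had low signal and is given from a fit without the filter. The expression of Pcsk2 was not analysed here, and only its promoter was searched.

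Endocrine cells, neurons and the hormone-producing cells of gut and pancreas store peptide hormones in dense-core granules and release them when the cell is stimulated. Chromogranins and secretogranins are acidic proteins that aggregate with the hormone in the trans-Golgi network as a granule forms, and prohormone convertases and carboxypeptidase E then cut the hormone precursors to their active size. mTECs line the thymic medulla and, as a population, transcribe genes typical of many other organs, hormone genes among them, so that developing T cells meet these proteins before leaving the thymus. Fezf2 is a zinc finger protein that controls transcription, and KO cells were set against WT cells to find which genes differ in its absence.

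Total RNA was hybridised to 10 Affymetrix arrays, 5 from Fezf2 KO mTECs (KO 6 to KO 10) and 5 from wild-type (WT) mTECs (WT 1 to WT 5), numbered as in the sample titles. All the cells came from thymi of C57BL/6-background mice aged 3 weeks and had been sorted as CD45-, EpCAM+ and CD80hi, a gate for mature mTECs. The labels name no Cre or promoter and do not say which stretch of Fezf2 was deleted. Nor do they say whether arrays stand for separate animals, so a p-value here reflects only array-to-array spread, possibly of technical origin. The deposited values are linear signal intensities in arbitrary units, and the number of arrays limits the precision. In such bulk samples, fewer cells of a type and less RNA per cell cannot be told apart.

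Fezf2 had signals of 13.8, 18.3, 13.2, 12.1 and 17.7 on KO 6 to KO 10, against 5239.8, 5054, 5895, 5432 and 5757 on WT 1 to WT 5, and all 5 KO signals were below the 40th percentile of their array, which lay between 21.5 and 22.1. Epcam, the epithelial adhesion molecule of the gate, ranged over 7456 to 7985 in KO and 6994 to 7564 in WT cells, and 16 of 16 measured mTEC marker genes passed the filter. Aire, the other transcriptional regulator of tissue-restricted genes in these cells, was lower in KO cells (limma adjusted p = 0.0282). It averaged 6504 ± 1199 in KO and 8791 ± 1156 in WT cells (SD, n = 5 each). The groups overlapped, with WT 1 at 6966. KO 6 was the lowest at 4368, and the other KO arrays lay between 6899 and 7203. The poly-A control transcripts added to the RNA averaged 759 on KO 6 and 537 on WT 1, and 115 to 422 elsewhere. Signal of 18S rRNA was highest on the same arrays, 3762 on KO 6 and 3445 on WT 1, and on the others it was 765 to 1154 in KO and 1226 to 1774 in WT, without overlap, and its part in the differences was not tested. Xist, the transcript of the inactive X chromosome, was near background on KO 6, KO 8 and WT 2, so arrays with and without Xist signal occurred in both groups.

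Among the 8 granule genes tested, Resp18 and Scg3 were lower and Neurod1 and Scg5 were higher in KO cells, and Chga, Chgb, Scg2 and Cpe did not pass the test. The test was limma's moderated test of log2(signal + 16), KO minus WT, with Benjamini-Hochberg adjustment over all 14087 genes and a threshold of 0.05. By the same rule 16.2% of all genes were lower and 13% were higher. With only 8 genes, 2 lower and 2 higher are not far from those shares. The median change of the 8 genes was -0.12 on the log2 scale, beside -0.03 for all genes tested.

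**Figure D1:**
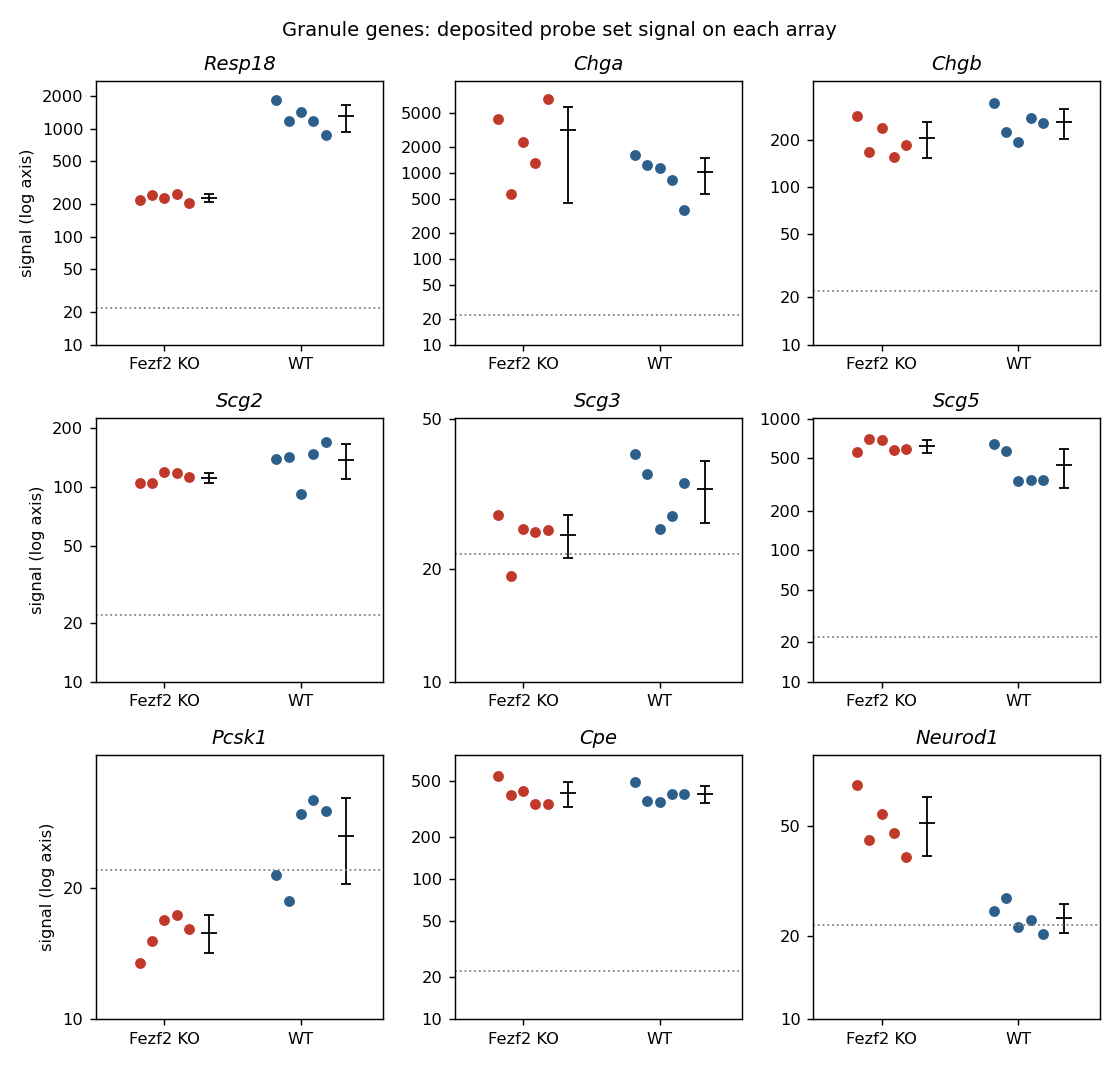
Deposited signal of the 9 measured granule genes on each array (y axis, arbitrary units, log scale, its range differing between panels), with Fezf2 KO arrays in red at the left and WT arrays in blue at the right of each panel. Crossbars give the mean and whiskers the SD of 5 arrays, and the dotted line is the mean 40th percentile of the arrays. Resp18 lies between 207 and 249 in KO, below every WT array, and Neurod1 between 38.5 and 70.6 in KO, above every WT array.

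Resp18, a small protein of the granule lumen first known from the pituitary, had the largest fall of the granule genes. Its signal was 217, 241, 229, 249 and 207 on KO 6 to KO 10, against 1844, 1184, 1427, 1182 and 872 on WT 1 to WT 5. The KO values lay close together and far below the lowest WT value, so the groups did not overlap. Of all genes tested, 12% had every KO array below every WT array. Resp18 averaged 229 ± 17.3 in KO and 1302 ± 361 in WT cells (SD, n = 5 each), so that the WT mean was 5.70 times the KO mean. The coefficient of variation was 7.59% in KO and 27.8% in WT cells. The fitted log2 change was -2.39 (SE 0.15, 95% interval -2.73 to -2.05, limma adjusted p = 6.9e-07). The exact permutation p, two-sided, was 0.00794, the smallest that 5 against 5 arrays allow, a value that the lack of overlap fixes here and for Neurod1 and that adds nothing to it. The remaining KO signal stayed well above the 40th percentile of the arrays. That percentile is a cut over all probe sets and not the background of this one. No detection call was used, and whether the KO signal was residual Resp18 transcript was not tested.

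The genes with a pattern over the 10 arrays most like that of Resp18 were not granule genes. Likeness was the root mean square difference between log2(signal + 16) values after centring each gene on its own WT mean. Genes with placeholder symbols (Rik, Gm, BC or AI) were left out of this search and of the like searches below. Krt10, a keratin of the upper epidermis, was nearest at 0.23, followed by Apoc3, an apolipoprotein of liver and gut, at 0.27. Maoa, which breaks down monoamines, came next at 0.28, Ttr, the thyroid hormone carrier transthyretin, at 0.29, and Smtnl1 at 0.34. All 5 were lower in KO cells, with log2 changes between -2.47 and -2.05, and none of their KO values reached a WT value. Likeness counted the KO arrays too, so a fall like that of Resp18 was built into the choice of these genes.

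Neurod1, a basic helix-loop-helix transcription factor of neurons and of endocrine cells in pancreas and gut, went the opposite way. Its signal was 70.6, 44.6, 55.4, 47.1 and 38.5 on KO 6 to KO 10, against 24.6, 27.3, 21.6, 22.8 and 20.3 on WT 1 to WT 5. Every KO array was above every WT array, as for 10.1% of all genes tested, and KO 6 was the highest. The WT signals were close to the 40th percentile of the arrays and exceeded it on 3 of 5 arrays, while all 5 KO signals exceeded it. Neurod1 averaged 51.2 ± 12.4 in KO and 23.3 ± 2.75 in WT cells (SD, n = 5 each). The log2 change was 0.76 (SE 0.11, 95% interval 0.52 to 1.00, limma adjusted p = 2.9e-04), which understates the fold because the offset weighs on low signals.

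A second Neurod1 probe set showed the same direction at a lower level. It read 34.6, 33.9, 49.98, 33.1 and 23.0 on KO 6 to KO 10, against 15.98, 18.4, 13.7, 17.5 and 19.5 on WT 1 to WT 5. The groups again did not overlap, and the WT values were all below the 40th percentile of their arrays. In the fit over all probe sets without the filter, its log2 change was 0.61 (limma adjusted p = 0.00173). The genes most like Neurod1 over the 10 arrays were Akip1 at 0.08, Trim16 at 0.09, and Cldn3, Ephx1 and Iscu at 0.10 each. Cldn3 is a tight junction claudin of mTECs, Ephx1 an epoxide hydrolase and Iscu a scaffold for iron-sulphur clusters. All 5 genes most like Neurod1 were higher in KO cells, with log2 changes between 0.65 and 0.86, a rise likewise built into their choice.

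The stretches of 250 bases before the annotated starts of Resp18 and Neurod1 are shown because these 2 genes gave the clearest separation of the groups, in opposite directions. They are read 5′ to 3′ on the gene's own strand, from RefSeq annotation of GRCm38.p6. Capitals mark E-boxes, CANNTG on either strand, the motif class that basic helix-loop-helix factors such as Neurod1 bind.
Resp18, chr1:75278416-75278665, minus strand: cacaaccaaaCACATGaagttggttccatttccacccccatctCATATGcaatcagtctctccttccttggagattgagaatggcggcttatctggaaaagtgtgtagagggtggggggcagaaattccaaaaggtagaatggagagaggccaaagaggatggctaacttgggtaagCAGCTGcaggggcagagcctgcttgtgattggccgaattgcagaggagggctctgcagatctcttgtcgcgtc
Neurod1, chr2:79456637-79456886, minus strand: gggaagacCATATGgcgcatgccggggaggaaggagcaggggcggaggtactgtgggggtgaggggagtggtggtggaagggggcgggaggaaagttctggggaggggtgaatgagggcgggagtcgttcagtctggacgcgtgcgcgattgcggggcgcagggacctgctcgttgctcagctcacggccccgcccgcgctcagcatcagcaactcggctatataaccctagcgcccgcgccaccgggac
Resp18 held 3 E-boxes in this window, beginning 240, 207 and 73 bases before the start, and Neurod1 held 1, beginning 242 bases before it. Among the 9 granule genes with a promoter in the RefSeq table, 7 held at least 1 E-box, beside 66.2% of all 32851 promoters searched over the same length. The variant CAGATG, or CATCTG on the other strand, which Neurod1 is known to bind, is one of the E-boxes and was found in 0 of the 9 windows, beside 14.4% of all promoters. These are matches of letters only and no binding was measured.

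Chga, chromogranin A, the most widely used marker of neuroendocrine cells and a gene also strongly expressed by the parathyroid, varied widely between arrays of the same genotype. Its signal was 4271, 566, 2295, 1315 and 7310 on KO 6 to KO 10, against 1619, 1234, 1131, 822 and 367 on WT 1 to WT 5. KO 10 and KO 6 were the highest arrays, while KO 7 was below 4 of the 5 WT arrays, so the groups overlapped. The highest KO signal was 12.9 times the lowest, and the highest WT signal was 4.42 times the lowest. Chga had the 9th largest spread within groups of all 14087 genes, an SD of 1.16 on the log2 scale against a median of 0.14. It averaged 3151 ± 2708 in KO and 1035 ± 470 in WT cells (SD, n = 5 each), a log2 change of 1.24 (95% interval -0.17 to 2.66, limma adjusted p = 0.175). Without KO 7 the change was 1.73 and passed the threshold (adjusted p = 0.0262), without KO 10 it was 0.82 (adjusted p = 0.309), and without both KO 6 and KO 10 it was 0.36 (adjusted p = 0.696).

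Chga moved with Pth, the gene of parathyroid hormone, across the arrays of both genotypes. Pth had 11125, 1182, 5305, 3211 and 14161 on KO 6 to KO 10, against 4963, 2895, 2201, 1163 and 203 on WT 1 to WT 5. The highest and lowest Pth arrays were the highest KO and the lowest WT array of Chga. In all, 8 of 10 arrays had the same rank in both genes. Pth was among the genes found by the search for those most like Chga, given below, so part of this agreement was built in. Kl, the Klotho co-receptor of parathyroid and kidney, had 109, 26.3, 59.2, 36.1 and 148 on KO 6 to KO 10, against 31.5, 29.1, 42.7, 33.2 and 29.2 on WT 1 to WT 5. The KO arrays of Kl kept the order of Chga and the WT arrays were all low.

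The parathyroid list held 7 genes, of which 6 were tested, and it was written after the genes most like Chga had been seen. Casr, the calcium-sensing receptor, was higher in KO cells at 152 ± 16.8 against 81.2 ± 18.8 in WT cells (log2 change 0.81, limma adjusted p = 8.0e-04). Vdr, the vitamin D receptor, was lower, at 431 ± 25.6 in KO and 717 ± 61.9 in WT cells (change of -0.71, log2), and the other 4 did not pass the test. The summed signal of the 6 genes ranged over 1903 to 15103 in KO and 1216 to 5842 in WT cells. Pth alone gave 14161 of the 15103 on KO 10 and 203 of the 1216 on WT 5. The spread of the sum was therefore mostly that of Pth and adds little to it. The part of parathyroid RNA in the Chga signal was not tested. The 5 genes most like Chga were Pla2g7 at 0.56, Sparcl1 at 0.60, Spink8 and Pth at 0.69 each and Postn at 0.71, which were looked up after the values of Chga had been seen. A list of thyroid markers, written at the same time, had 4 tested genes, with Slc5a5 higher (log2 change 0.80), Slc26a4 lower (-0.60) and summed signals of 263 to 313 in KO and 288 to 417 in WT cells.

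**Figure D2:**
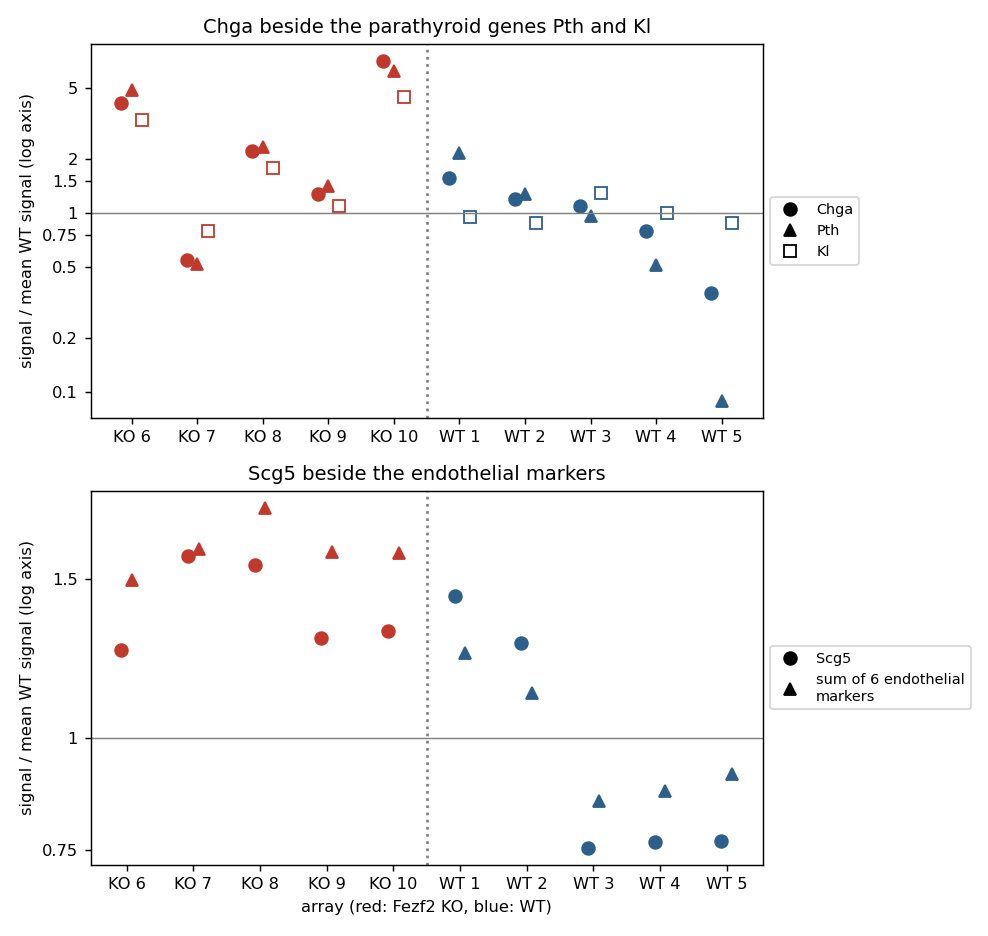
Signal on each array divided by the mean signal of the 5 WT arrays (y axes, log scale), with Fezf2 KO arrays in red at the left and WT arrays in blue at the right. Above, Chga (circles) and Pth (triangles) are highest on KO 10 and KO 6 and lowest on KO 7 among the KO arrays, with Kl (open squares) in the same order. Below, Scg5 (circles) and the summed signal of 6 endothelial markers (triangles) are both lowest on WT 3, WT 4 and WT 5.

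Chgb, chromogranin B, did not follow Chga. Its signal was 280, 167, 236, 156 and 183 on KO 6 to KO 10, against 341, 224, 192, 272 and 255 on WT 1 to WT 5. WT 1 was the highest array and KO 9 the lowest, and the groups overlapped over most of their range. Chgb averaged 204 ± 52.3 in KO and 257 ± 56.2 in WT cells (SD, n = 5 each), a log2 change of -0.32 (95% interval -0.68 to 0.05, limma adjusted p = 0.182). It passed the threshold with array weights (-0.43, adjusted p = 0.0195) and when the pair WT 1 and KO 6 formed a block (adjusted p = 0.0464).

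Scg2, secretogranin II, the precursor of the peptide secretoneurin, read 104, 105, 119, 118 and 112 on KO 6 to KO 10, against 140, 143, 92.0, 147 and 169 on WT 1 to WT 5. WT 3 was below every KO array and the other 4 WT arrays were above every KO array. The means were 112 ± 6.95 in KO and 138 ± 28.3 in WT cells (SD, n = 5 each), a log2 change of -0.25 (95% interval -0.52 to 0.01, limma adjusted p = 0.144). Without WT 3 the change was -0.38 and passed the threshold (adjusted p = 0.00462).

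Scg3, secretogranin III, which tethers chromogranin A to the granule membrane, was lower in KO cells by a margin that did not last under most other settings. Its signal was 27.8, 19.2, 25.4, 25.0 and 25.2 on KO 6 to KO 10, against 40.3, 35.7, 25.5, 27.5 and 33.7 on WT 1 to WT 5. These values sit just above the 40th percentile of the arrays, with KO 7 below it, and KO 6 overlapped the 2 lowest WT arrays. Scg3 averaged 24.5 ± 3.21 in KO and 32.5 ± 6.04 in WT cells (SD, n = 5 each), a log2 change of -0.26 (SE 0.09, 95% interval -0.45 to -0.06, limma adjusted p = 0.0494). In 15 of 24 alternatives the call was lost, with adjusted p between 0.0212 and 0.119 over all 24.

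Scg5, also called 7B2, the chaperone that the convertase PC2 needs for its maturation, was higher in KO cells. Its signal was 556, 706, 691, 572 and 584 on KO 6 to KO 10, against 638, 566, 335, 340 and 341 on WT 1 to WT 5. WT 1 and WT 2 lay within the KO range and the other 3 WT arrays were far below it. Scg5 averaged 622 ± 71.0 in KO and 444 ± 146 in WT cells (SD, n = 5 each), a log2 change of 0.52 (SE 0.18, 95% interval 0.14 to 0.90, limma adjusted p = 0.0429). The call was lost in 11 of 25 alternatives, among them 8 of the 10 that left out 1 array, with adjusted p up to 0.105 without WT 4.

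Markers of endothelial cells, which lack EpCAM and so should be left out by the sort, also differed between the groups. Their summed signal was 725, 785, 871, 777 and 776 on KO 6 to KO 10, against 602, 543, 412, 422 and 442 on WT 1 to WT 5. The KO arrays were all above the WT arrays. Among the WT arrays the endothelial sums of WT 1 and WT 2 were the highest, as for Scg5. This split of the WT arrays was not particular to endothelial markers. WT 1 and WT 2 were also the highest WT arrays for T cell markers (1394 and 1400) and hormone precursors (37414 and 35161). For mTEC markers they were the lowest (98090 and 103650). Singly, 4 of the 6 markers (Emcn, Kdr, Cdh5 and Tek) had WT 1 and WT 2 above the other WT arrays and 2 (Vwf and Pecam1) did not, Vwf being lowest on WT 1. Of the 6 genes, 5 were higher in KO cells, with a median log2 change of 0.68. Vwf, the von Willebrand factor, stood at 318 ± 28.1 in KO and 186 ± 19.6 in WT cells, and the adhesion molecule Pecam1 at 43.1 ± 4.25 in KO and 23.0 ± 8.70 in WT cells. On WT 2 to WT 5, Pecam1 (15.8 to 20.9) and Emcn (12.7 to 19.5) were below the 40th percentile of their array, so their WT levels are poorly fixed. The part of endothelial RNA in the Scg5 signal was not tested. The genes most like Scg5 over the arrays, looked up after its values had been seen, were Fap at 0.10, S100a8 and Vsig10 at 0.15 each, and Zfp945 and Tek at 0.17 each. Tek, the angiopoietin receptor, is one of the 6 endothelial markers.

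Pcsk1, the prohormone convertase PC1/3, which makes the first cuts in many hormone precursors, had low signal. It read 13.4, 15.1, 16.9, 17.3 and 16.1 on KO 6 to KO 10, against 21.4, 18.6, 29.4, 31.8 and 29.9 on WT 1 to WT 5. The groups did not overlap, but 0 of 5 KO and 3 of 5 WT arrays exceeded the 40th percentile of their own array. Pcsk1 therefore failed the filter. Such a lack of overlap was counted only among the 14087 genes that passed it, where 12% had every KO array below every WT array. In the fit without the filter, in which 13% of 18194 genes were lower, the means were 15.8 ± 1.56 in KO and 26.2 ± 5.84 in WT cells (SD, n = 5 each). The log2 change was -0.40 (SE 0.08, 95% interval -0.58 to -0.22, limma adjusted p = 0.0040). The KO level is near the bottom of the scale, where the lowest value in the whole table was 5.49, so the size of the fall is poorly fixed.

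Cpe, carboxypeptidase E, which trims the basic residues left by the convertases, had nearly equal means in both genotypes. Its signal was 542, 395, 421, 345 and 341 on KO 6 to KO 10, against 495, 362, 353, 406 and 403 on WT 1 to WT 5. KO 6 and WT 1 were the highest arrays of their groups, and the ranges overlapped almost wholly. Cpe averaged 409 ± 81.9 in KO and 404 ± 56.1 in WT cells (SD, n = 5 each), a log2 change of 0.01 with a 95% interval of -0.27 to 0.28 (limma adjusted p = 0.973). A weaker Cpe probe set read 10.6 to 14.3 in KO and 11.3 to 16.3 in WT cells, below the 40th percentile on all arrays.

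**Figure D3:**
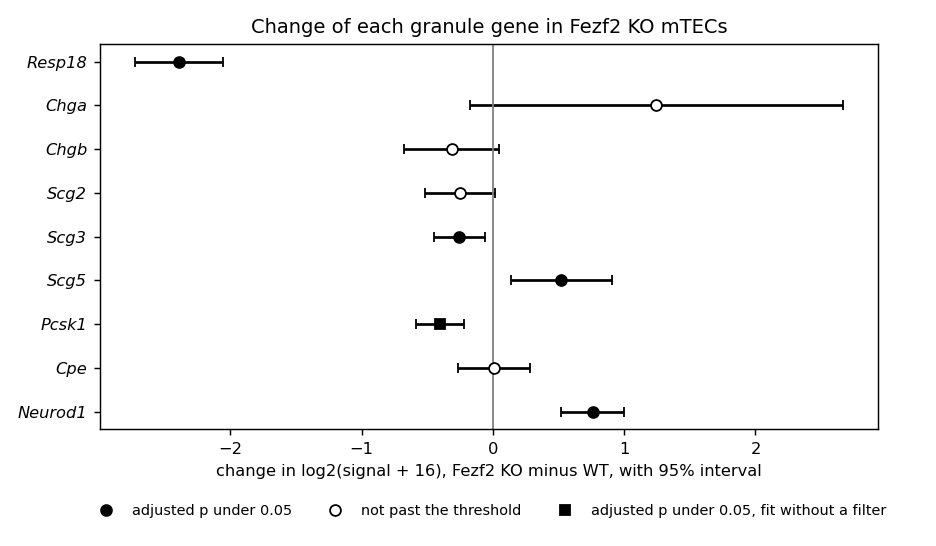
Change in log2(signal + 16), Fezf2 KO minus WT, for the 9 measured granule genes (x axis), with bars for the 95% interval of the limma fit on 5 arrays per group. Resp18 at -2.39 stands far to the left, Pcsk1 comes from the fit without the filter, and the interval of Chga, -0.17 to 2.66, is the widest.

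The promoters of some chromogranin and secretogranin genes are known for a cAMP response element, the site bound by the transcription factor CREB. Its letters TGACGTCA, which read the same on both strands, were found within 250 bases before the start of 3 of the 9 granule genes, Scg2, Chgb and Pcsk1, beside 1.55% of all promoters. Stretches of 60 bases around these sites are shown with the matching stretch of Chga, which held only the core TGACG. The stretch of Pcsk1 holds a further core near its end. The strand runs 5′ to 3′ toward the gene, the build is GRCm38.p6 and capitals mark each element and each core.
Scg2, chr1:79440061-79440120, minus strand: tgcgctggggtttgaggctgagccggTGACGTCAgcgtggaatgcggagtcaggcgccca
Chgb, chr2:132781544-132781603, plus strand: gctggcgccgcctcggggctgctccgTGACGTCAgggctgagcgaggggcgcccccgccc
Pcsk1, chr13:75089753-75089812, plus strand: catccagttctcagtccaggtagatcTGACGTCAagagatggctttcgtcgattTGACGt
Chga, chr12:102554871-102554930, plus strand: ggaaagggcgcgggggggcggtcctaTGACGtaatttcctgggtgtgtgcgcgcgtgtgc
The element began 68 bases before the start in Scg2, 72 in Chgb and 78 in Pcsk1, and the core in Chga began 44 bases before it. The core TGACG, or CGTCA on the other strand, lies within the element and was found in 7 of the 9 windows, beside 17.8% of all promoters. Neither Resp18 nor Neurod1 held it. The log2 changes of the 3 genes with the full element were -0.25 for Scg2, -0.32 for Chgb and -0.40 for Pcsk1. Of these, that of Pcsk1 passed the test in the fit without the filter. Of the genes with the core alone, Chga changed by 1.24, Scg5 by 0.52 and Scg3 by -0.26, and Pcsk2 was not measured. Without the core, Resp18 changed by -2.39 and Neurod1 by 0.76. A relation between these letters and the changes was not tested.

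Counts in the other lists of the secretory pathway are given to be read beside the 16.2% lower and 13% higher of all genes. All the lists were chosen with earlier results of these data known, so the counts only describe them. Of 21 further processing enzymes and inhibitors, 19 were tested, and 3 were lower and 4 higher, with a median log2 change of 0.05. Ctsl, the lysosomal protease cathepsin L, stood at 9991 ± 566 in KO and 5458 ± 1049 in WT cells (log2 change 0.89), and Ctsb, cathepsin B, changed by 0.37. Ece1, endothelin-converting enzyme, was higher by 0.67, and Cpn1, a subunit of carboxypeptidase N, had a log2 change of -0.37. Cathepsins and endothelin-converting enzyme also work outside the granule.

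Of 16 granule cargo and membrane proteins, 14 were tested, and 2 were lower and 6 higher, with a median of 0.14. Ica1, an islet autoantigen that acts in granule formation, had 339 ± 35.4 in KO and 142 ± 38.1 in WT cells (log2 change 1.20, limma adjusted p = 9.4e-05). Nucb2, the precursor of nesfatin, was higher by 0.52, and Atp6ap2, an accessory subunit of the proton pump, by 0.26. Ptprn2, the granule membrane protein phogrin, was lower, at 183 ± 15.7 in KO and 278 ± 45.6 in WT cells (-0.55, log2).

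Of 33 docking and exocytosis genes, 29 were tested, and 9 were lower and 3 higher, with a median of -0.09. The small GTPases Rab27a and Rab27b, which bring granules to the cell membrane, were higher by 0.87 and 1.02, with Rab27a at 457 ± 57.2 in KO and 242 ± 12.5 in WT cells. Unc13b, a priming factor, was lower by a log2 change of -0.67, and Cadps2, which acts in filling and priming dense-core granules, by -0.57. Rab3d, named after its value was seen, was the other gene that rose (0.32).

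Of 35 endocrine transcription factors, 21 were tested, and 3 were lower and 5 higher, Neurod1 among them, with a median of 0.01. Pax6, a regulator of islet cells and eye, stood at 73.3 ± 15.5 in KO and 23.7 ± 4.95 in WT cells (log2 change 1.16, limma adjusted p = 2.9e-05). Tcf4, an E protein and so a possible partner of basic helix-loop-helix factors, had 646 ± 55.8 in KO and 347 ± 25.8 in WT cells. Foxa1, a forkhead factor of gut and airway, was lower (log2 change -0.44). Neurog3, the factor that starts the endocrine lineage in the pancreas and lies upstream of Neurod1 there, was also lower at 79.1 ± 24.0 in KO against 123.8 ± 21.7 in WT cells (-0.59, limma adjusted p = 0.0301), named after its value was seen.

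Peptide hormone and neuropeptide precursors, the cargo of the granules, were more often lower than higher. Of 52 genes, 43 were tested, and 18 were lower and 3 higher, with a median of -0.24 beside -0.03 for all genes. Nts, neurotensin, had 1450 ± 220 in KO and 2770 ± 166 in WT cells (log2 change -0.94, limma adjusted p = 1.7e-05), and Gip, the incretin of the upper gut, 677 ± 86.5 in KO and 1235 ± 142 in WT cells (-0.86). Grp, gastrin-releasing peptide, and Pyy, peptide YY of the lower gut, were lower as well, with log2 changes of -0.75 and -0.51. The 3 that were higher, named after their values were seen, were Iapp, the islet amyloid polypeptide (0.45), Nppc, a natriuretic peptide (0.32), and Ucn3, urocortin 3 (0.26).

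Of 24 other markers of neuroendocrine cells, 20 were tested, and 7 were lower and 1 higher, with a median of -0.12. Their summed signal was 2519 to 2662 in KO and 3001 to 3424 in WT cells, without overlap. This list too was chosen with earlier results known, so neither the counts nor the sums test for a loss of such markers. Tph1, which makes serotonin in enterochromaffin cells, had 195 ± 9.07 in KO and 343 ± 36.0 in WT cells (log2 change -0.76, limma adjusted p = 1.8e-05), and Car8 had 78.1 ± 5.74 in KO and 273 ± 93.6 in WT cells (-1.57). The brain-expressed gene Bex2 and the sodium channel gene Scn3a were lower by log2 changes of -0.48 and -0.57, while Gnao1, a G protein subunit of neurons named after its value was seen, rose by 0.25. Syp, synaptophysin, and Tubb3, neuronal tubulin, failed the filter, with signals of 12.9 to 15.7 in KO and 14.3 to 17.5 in WT cells for Syp.

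**Figure D4:**
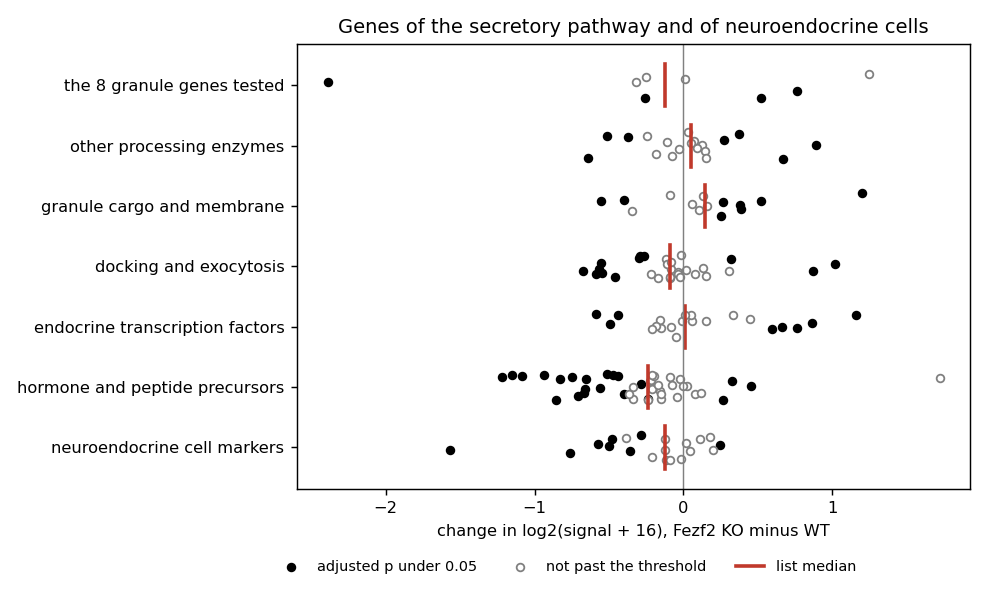
Change in log2(signal + 16), Fezf2 KO minus WT, of each tested gene (x axis) in 7 lists of the secretory pathway and of neuroendocrine cells, with filled points past the adjusted p threshold of 0.05, open points not past it and a red line at each list's median. The granule genes spread from -2.39 (Resp18) to 1.24 (Chga), and the medians of the 7 lists lie between -0.24 for hormone precursors and 0.14 for granule cargo and membrane proteins.

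Marker lists of other cells gave the following values beside these gene groups. T cell and thymocyte markers had 0 of 10 genes called by limma, and 0 of 10 at an unadjusted p under 0.05, with summed signals of 680 to 1489 in KO and 1069 to 1400 in WT cells. Nerve and glia markers, which share genes with neuroendocrine cells, had 3 lower of 7, Prph, Nefm and S100b, with sums of 1440 to 1752 in KO and 1748 to 1895 in WT cells. Myeloid markers had 5 lower and 2 higher of 9, B cell markers 1 lower and 1 higher of 3, fibroblast markers 2 higher of 7, and tuft cell markers 4 lower and 1 higher of 12. The mTEC markers had 2 lower and 4 higher of 16. The part of these cells in the hormone and neuroendocrine values was not tested.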

How the data were processed

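Gene expression was measured on 10 Affymetrix arrays, 5 of Fezf2 KO and 5 of WT mTECs. The deposited table gives linear signal intensity for 45101 probe sets. The authors used MAS5 (no version stated), per the submitters' processing notes. Their scaling, background step and genome build were not given in the sources used here. The platform annotation gave 1 gene symbol for 34958 probe sets, several for 932 and none for 9211, and 34754 were matched by Entrez ID to the RefSeq gene table of GRCm38.p6. No coordinate of a probe set is given.

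From the intensities, log2(signal + 16) was computed without further normalization. Probe sets above the 40th percentile of their own array on at least 5 of 10 arrays were kept, and each gene was taken from its brightest such probe set by mean. KO minus WT was fitted over 14087 genes with limma 3.58.1 in R 4.3.3 (lmFit, eBayes with trend and robust estimation) with Benjamini-Hochberg adjustment at 0.05. Every fold is on the log2(signal + 16) scale unless called a ratio of means. Intervals are at 95%. Resp18 and Neurod1 also had exact permutation tests. The fit was tested on simulated arrays.

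The granule genes and the 16 gene lists beside them were chosen with earlier results of these data known, and the parathyroid and thyroid lists after the genes most like Chga were seen. The text names the granule genes, Fezf2 and Aire, per list up to 4 called genes, those of smallest adjusted p, and the 5 genes most like Resp18 and Neurod1, with others marked as chosen after their values were seen. Epcam, Xist, Pth, Kl, Syp and Tubb3 were named outside this rule to describe the cells, the arrays or a list, also with their values seen. Promoters of 9 of the 10 genes (none for Cpe) came from the RefSeq table of 32851 promoters. The settings varied were the offset (1 or 64), the normalization (quantile, or centring on array medians), the filter (none, or the 60th percentile), other rules for probe sets, eBayes without trend, array weights, a threshold of 0.01, blocks for WT 1 with KO 6 and for Xist signal, arrays left out singly or as WT 1 with KO 6, and, added after seeing the data, KO 6 with KO 10 left out.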

Additional observations from a re-analysis of the deposited data

How the results depend on the processing

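Resp18 kept its direction and its call in 25 of 25 alternatives, with log2 changes of -2.52 to -2.19 and adjusted p of 3.5e-08 to 2.5e-05 (limma). Neurod1 did so in 24 of 24, with 0.39 to 1.08 and 1.5e-05 to 0.00118, and was not tested under the 60th percentile filter. Pcsk1 kept its direction and call in 23 of 23, with -0.68 to -0.18. For Resp18 and Pcsk1, other probe set rules, eBayes without trend and the threshold of 0.01 left the log2 change as it was. These settings could alter only the call.

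The count of granule genes lower in KO cells, 2 in the report, was 1 with an offset of 64, quantile normalization, median centring, the 60th percentile filter, eBayes without trend, a threshold of 0.01, WT 1 and KO 6 left out, or KO 6 and KO 10 left out, the last added after seeing the data. It was 1 to 3 when each array was left out in turn. The count higher in KO cells, also 2, was 1 under the 60th percentile filter, a threshold of 0.01, Xist signal as a block, or KO 6 and KO 10 left out, and 1 to 2 with each array left out in turn. The lost calls were those of Scg3 and Scg5, except under the 60th percentile filter, where Scg3 and Neurod1 were not tested. Without WT 3, 3 were lower, with Scg2 added. With array weights, or with WT 1 and KO 6 as a block, 3 were also lower, with Chgb added. Without the filter, and when counted per probe set, the count lower stayed at 2, but with Pcsk1 in place of Scg3. Without KO 7 the count higher stayed at 2, but with Chga in place of Scg5. All genes called numbered 4119, and 2473 at a threshold of 0.01, which is stricter by construction.

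Cpe, near 0, changed sign to -0.0457 with array weights, -0.0224 without WT 1 and KO 6, -0.0257 with Xist signal as a block and -0.0529 without KO 6 and KO 10, and ranged over -0.0957 to 0.0809 with each array left out; the cause was not tested.

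No paired analysis was possible because the KO and WT arrays share no replicate number. Signals near the 40th percentile limit Scg3, Pcsk1 and WT Neurod1, no detection call was used, and none of 18 groups of 5 values held an array standing apart by Dixon's critical value of 0.71.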
